A study of Mus musculus with 4 samples.

Results

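The islands described here are 2641 CpG islands that lie in the body of a protein-coding gene but hold no 5′ end of a protein-coding transcript. They were picked from the 13719 islands on chromosomes 1 to 19 that had a methylation level in all 4 libraries, by their position against the GENCODE vM21 annotation (GRCm38, the assembly of mm10) and with no use of the levels. Of the other islands, 9875 held a protein-coding 5′ end and 1203 touched no protein-coding gene. The cells were C3H10T1/2, a mouse line of mesenchymal stem cells, and all 4 libraries come from this line. Cells were transfected for 48 h with a control siRNA (NC) or a siRNA against DNMT1 (siDNMT1) and were then left uninduced, or induced towards osteoblasts (OB) for 3 days with ascorbic acid, β-glycerophosphate and dexamethasone. The labels list no uninduced culture kept for the same 3 days, so induction cannot be told apart from time since transfection. Each of the 4 conditions was sequenced as 1 library, so no difference below has a replicate check and no p-value is given. The level of an island is the fraction of its CpG cytosines read as methylated (mCG/CG, from 0 to 1), deposited without read counts, so the depth behind a level is unknown. The libraries are labelled as reduced representation bisulfite sequencing, while the labels' protocol describes DNA sheared by sonication.

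A CpG island is a stretch in which CpG dinucleotides, scarce in most of the mouse genome, remain frequent. Islands at gene starts are mostly free of methylation, and islands inside transcribed genes are known to carry it more often, in many cell types. DNMT1 copies methylation onto the new strand after DNA replication, the TET enzymes remove it, and at imprinted genes the alleles from the mother and from the father differ in it.

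The 5 sequences below show the kinds of island the results turn on. All were read from RefSeq's GRCm38.p6 on the plus strand, and none overlaps an annotated UTR. The first pair come from introns of imprinted genes and lie beside the start of a noncoding transcript. In both, capitals mark TGCCGC or its reverse complement GCGGCA, the core letters bound by the imprinting factor ZFP57.
Igf2r, chr17:12741772-12742071: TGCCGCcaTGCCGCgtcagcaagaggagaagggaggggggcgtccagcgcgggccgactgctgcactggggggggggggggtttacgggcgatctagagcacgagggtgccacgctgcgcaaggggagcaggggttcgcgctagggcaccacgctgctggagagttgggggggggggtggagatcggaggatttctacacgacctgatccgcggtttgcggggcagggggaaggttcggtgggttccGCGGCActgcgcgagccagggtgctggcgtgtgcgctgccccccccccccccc
Kcnq1, chr7:143295465-143295764: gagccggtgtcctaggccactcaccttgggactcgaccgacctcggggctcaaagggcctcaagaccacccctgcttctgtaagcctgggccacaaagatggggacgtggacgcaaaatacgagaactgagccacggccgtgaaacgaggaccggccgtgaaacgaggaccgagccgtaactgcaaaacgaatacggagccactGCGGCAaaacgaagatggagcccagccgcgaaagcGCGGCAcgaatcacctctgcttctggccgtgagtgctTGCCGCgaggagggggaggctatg
The next is the coding-exon island of Rabac1, which had the lowest mean level among coding-exon islands clear of UTRs, and capitals mark each CG.
Rabac1, chr7:24972041-24972287: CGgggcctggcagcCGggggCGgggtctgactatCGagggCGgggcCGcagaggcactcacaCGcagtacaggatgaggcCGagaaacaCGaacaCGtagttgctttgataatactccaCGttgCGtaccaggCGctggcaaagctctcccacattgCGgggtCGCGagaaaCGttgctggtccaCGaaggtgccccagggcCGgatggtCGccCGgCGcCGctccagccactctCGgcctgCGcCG
The last pair are islands that moved with siDNMT1, one that rose in both comparisons (Zfp513, in a coding exon) and one that fell most before induction among islands clear of UTRs (Gnas, in an intron), with each CG in capitals.
Zfp513, chr5:31200414-31200621: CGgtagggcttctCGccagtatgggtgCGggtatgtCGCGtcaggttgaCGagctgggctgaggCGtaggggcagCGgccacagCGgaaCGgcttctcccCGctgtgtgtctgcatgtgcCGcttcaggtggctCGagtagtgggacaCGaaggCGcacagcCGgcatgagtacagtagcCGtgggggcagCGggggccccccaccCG
Gnas, chr2:174297263-174297532: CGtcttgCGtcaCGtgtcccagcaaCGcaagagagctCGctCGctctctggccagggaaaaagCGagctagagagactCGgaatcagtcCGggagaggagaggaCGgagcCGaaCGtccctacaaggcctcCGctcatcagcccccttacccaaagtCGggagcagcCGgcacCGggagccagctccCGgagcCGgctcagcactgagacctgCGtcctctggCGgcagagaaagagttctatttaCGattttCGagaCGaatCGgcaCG

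The Rabac1 island had levels of 0.0126, 0.0114, 0.0110 and 0.00838 in NC, siDNMT1, NC OB and siDNMT1 OB and lies 351 bases from a protein-coding 5′ end. TGCCGC or GCGGCA, searched on both strands in the central 200 bases, occurred in 564 of the 2641 islands (21.4%). All 13719 islands held it in 23.9%, islands at starts in 25.1% and intergenic islands in 19.4%. Among the 19 islands of imprinted host genes 7 held it (36.8%). A match is a description of the letters and not of binding.

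Not all of these islands lay far from a start. The median distance to the nearest protein-coding 5′ end was 1987 bases, but 385 islands lay within 100 bases of one, 879 within 500 and 1081 within 1000, and 566 lay over 10000 bases away. A further 520 held the 5′ end of another kind of transcript, of which 144 held that of a noncoding gene or pseudogene, and 2121 held no annotated 5′ end. The islands fell in 2201 host genes, 2569 of them wholly inside. Of the 2641, 19 contained no CCGG, the site cut by MspI in reduced representation libraries. Stretches of 50 bases found more than once on the assembled chromosomes made up at least 10% of the island in 84 islands and at least 50% in 29, and the share of reads that fit more than 1 copy was not computed.

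These islands were spread over the whole range of methylation. Their median level was 0.442 in NC, 0.438 in siDNMT1, 0.409 in NC OB and 0.397 in siDNMT1 OB. Islands at starts had medians of 0.0211, 0.0221, 0.0194 and 0.0196, and intergenic islands of 0.249, 0.248, 0.226 and 0.217. By the mean of the 4 libraries, 889 intragenic islands were low (below 0.2, 33.7%), 1011 intermediate (38.3%) and 741 high (from 0.75, 28.1%). At starts 84.2% were low and 1.40% high, and among intergenic islands 46.3% and 12.8%.

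**Figure D1:**
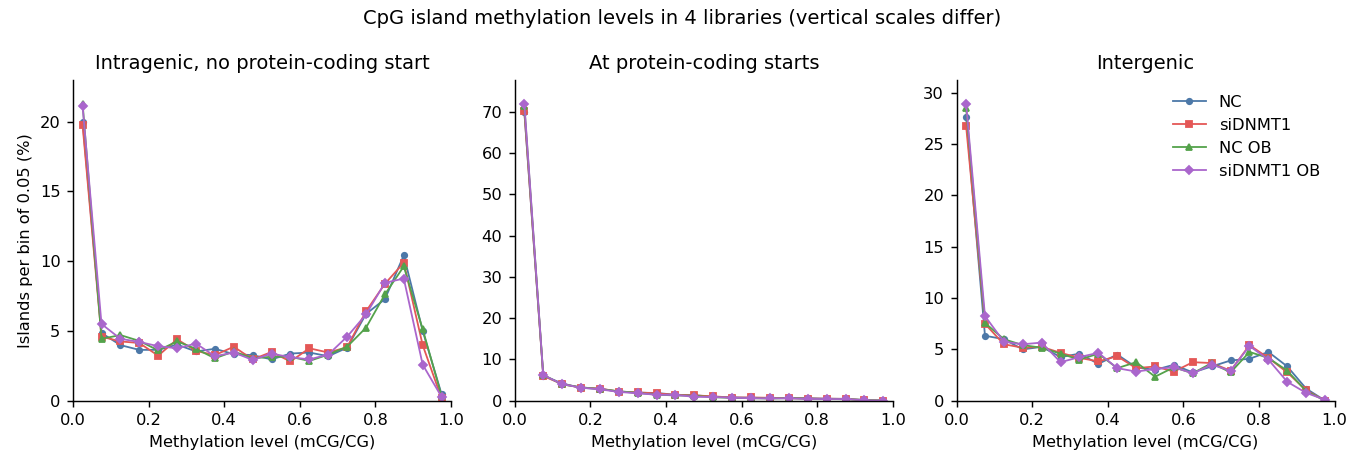
Share of islands (%, vertical axis, a scale of its own in each panel) per bin of 0.05 of methylation level (horizontal axis) in the 4 libraries, for intragenic islands, islands at protein-coding starts and intergenic islands. The intragenic islands have a peak near 0 and a further one between 0.8 and 0.9, while islands at starts have 1.

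High islands were somewhat poorer in CpG and GC than low ones. The median CpG per 100 bases was 9.75 in low, 9.06 in intermediate and 8.37 in high islands, and the median GC 67.9%, 67.0% and 65.2%. The median CpG observed over expected was 0.866 in low, 0.835 in intermediate and 0.826 in high islands. Low islands held a median of 43 CpG in 435 bases, and high islands 30 CpG in 349 bases. The distance to a protein-coding 5′ end differed more, with medians of 337, 2049 and 5840 bases. No test was made of these gradients, since the islands of a library are not replicates of it.

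Levels climbed from the 5′ to the 3′ end of the host gene. The median of the mean level was 0.112 for the 815 islands centred in the first of 10 equal bins of the gene, 0.239 in the next, and 0.755 for the 374 islands in the last bin. The climb had 2 steps down, from 0.605 in the fifth bin to 0.514 in the sixth and from 0.668 in the seventh to 0.663 in the eighth. Against distance, islands within 100 bases of a protein-coding 5′ end had a median of 0.0685. It was 0.443 between 1000 and 2000 bases, 0.709 between 5000 and 10000, and 0.728 over 50000.

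Levels differed by feature as well as by distance. Coding-exon islands, 1881 in all, had a median of 0.549, and the 432 islands in introns alone 0.217. The 35 islands in 3′ UTRs stood at 0.595, the 186 in 5′ UTRs at 0.105 and the 107 in other exons at 0.127. Over 1000 bases from a protein-coding 5′ end the gap between coding exon and intron remained, with 0.739 against 0.302. Within 1000 bases the values were 0.209 and 0.137. Where the centre base alone decided the feature, coding-exon islands had a median of 0.635 and intron islands 0.196.

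**Figure D2:**
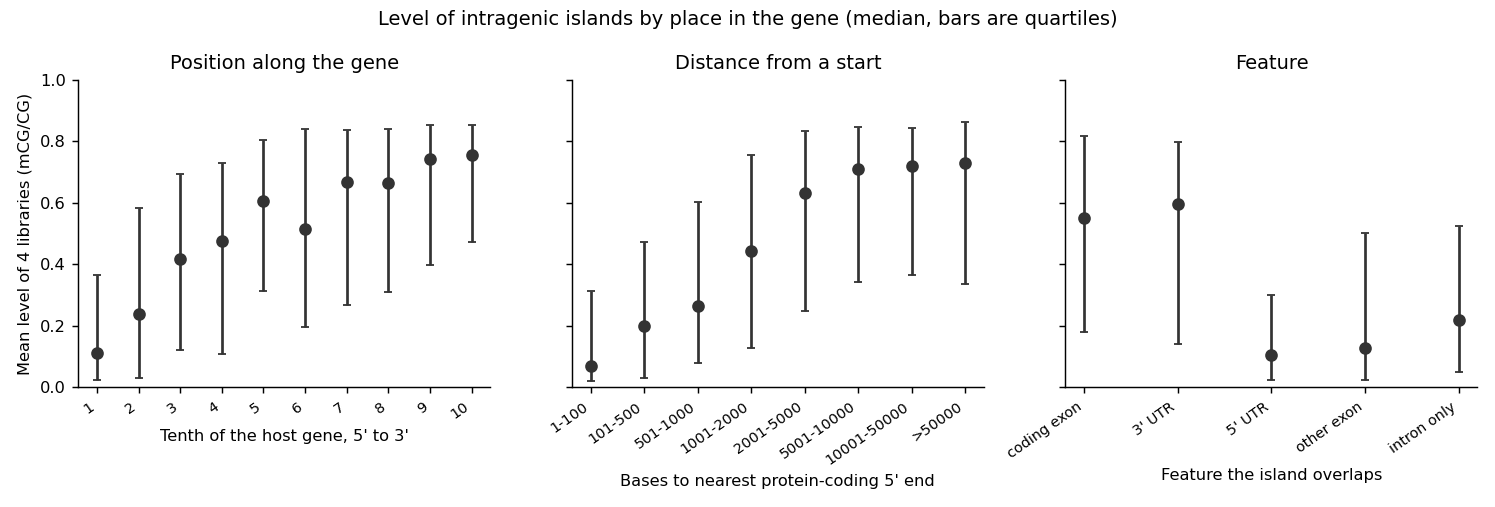
Median (points) and quartiles (bars) of the mean methylation level over 4 libraries (vertical axis, mCG/CG) by 10 equal bins of the host gene, by bases to the nearest protein-coding 5′ end and by feature. The medians range from 0.112 to 0.755 along the gene and from 0.0685 to 0.728 with distance, and the quartiles of neighbouring groups overlap.

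Starts of other transcripts went with low levels. Islands holding the 5′ end of a noncoding transcript of a protein-coding gene, 376 in all, had a median of 0.0764. Those holding the 5′ end of a noncoding gene or pseudogene had 0.257, and those holding none 0.499. Over 1000 bases from a protein-coding 5′ end the 3 medians were 0.321, 0.435 and 0.687, and islands with no annotated 5′ end again stood highest.

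Islands of one gene could stand far apart. In the 330 genes with at least 2 of these islands, the median range of mean level within a gene was 0.258, and 60 genes held a low and a high one. The most 3′ island had the higher mean level in 215 of the 330 genes (65.2%). Zfhx3, a homeobox and zinc finger gene, held 6, with a mean level of 0.0144 at the 5′ UTR island (chr8:108703775-108705080, 188 CpG) and 0.893, 0.95, 0.887, 0.865 and 0.815 at the 5 coding-exon islands that follow. Fat1, an atypical cadherin, held 5, with 0.0138 in the intron island (chr8:44937942-44938767) and 0.932, 0.854, 0.931 and 0.799 in coding exons. In both genes the first island was low and all later ones were high. Nfix had no such switch, with mean levels of 0.499, 0.126, 0.624, 0.853 and 0.836 from 5′ to 3′.

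Over all intragenic islands, the level in NC differed little from that of the shores, the flanks listed beside an island. Among 2255 islands with shores the median of island minus shore was 0.00529, and 47.9% of the islands were lower. Against the introns of the host gene the median was 0.0221 (45.2% of 2426 lower), and against its promoter 0.0725 (36.6% of 2186 lower). The classes used next are set by the island's own level, which by itself favours high islands above and low islands below their neighbours, so their values are a description. Against its own shores, a high island had a median level in NC of 0.860 where the shores had 0.719, and it was lower than its shores in 10.7% of 642 islands. Low islands had 0.0370 against 0.142 for their shores. Against the introns of the host gene, high islands had 0.861 and the introns 0.527, and 0.866% of 693 were lower. The promoter of the host gene had a median of 0.275 beside 0.862 for the high islands, and 279 of 648 high islands (43.1%) had a host promoter with a mean level below 0.2. Such a promoter went with 62.6% of 730 low and 29.6% of 808 intermediate islands, so the share of high islands lay between these. Exon and intron entries are single values per gene and can include the island's own CpG.

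**Figure D3:**
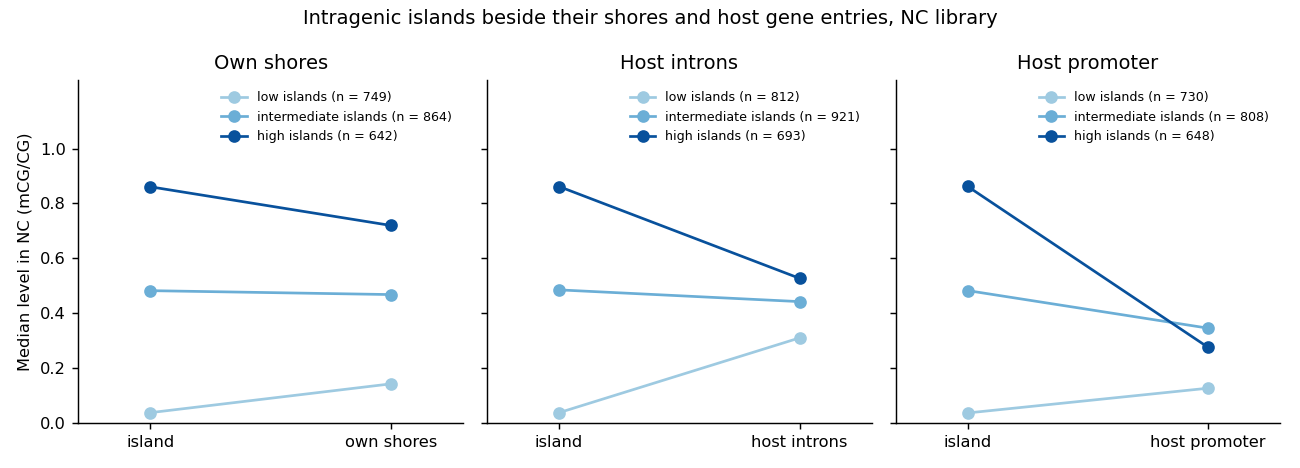
Median methylation level in the NC library (vertical axis, mCG/CG) of low, intermediate and high intragenic islands and of their shores, host introns and host promoter, each joined by a line. High islands sit at 0.860 to 0.862, above all 3 neighbours, and low islands at 0.0359 to 0.0370, below them, in classes set by the island's own level.

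Differences between conditions were small for most of these islands. A change was counted from 0.1. Before induction, 10 of the 2641 islands fell with siDNMT1 and 8 rose, where 0.197% of all 13719 islands fell and 0.19% rose. The median difference, siDNMT1 minus NC, was -0.00216, and 57.7% of the islands were lower. After induction, 20 fell with siDNMT1 and 14 rose (all islands 0.328% and 0.248%), with a median of -0.00842 and 71.6% lower. Intragenic islands changed in 0.379% and 0.303% before induction and in 0.757% and 0.530% after it, above the shares over all islands in each case. Islands at starts, most of them low, make up 9875 of that background. Intergenic islands fell in 0.333% and rose in 0.914% before induction, and in 0.582% and 0.831% after it. Their rises were thus more frequent than those of intragenic islands in both states, and their falls slightly less so.

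More islands fell by 0.1 with induction than with siDNMT1, while the rises were not more numerous than with siDNMT1 after induction. With the control siRNA, 33 islands fell and 12 rose from NC to NC OB (all islands 0.802% and 0.219%), with a median of -0.00808 and 72.6% lower. In siDNMT1 cells 49 fell and 11 rose (all islands 1.02% and 0.16%), with a median of -0.0170 and 83.6% lower. With each library centred on its own median over these islands, the counts of induction turned to 11 that fell and 22 that rose with the control siRNA, and to 16 and 26 with siDNMT1. From a change of 0.2 the falls numbered 4 and 5 with induction, and 2 and 6 with siDNMT1 before and after it. The library medians themselves differ by -0.0327 and -0.0414 in these comparisons. Centring also put the median difference above 0 in all 4 comparisons, at 0.00191 and 0.00431 with siDNMT1 before and after induction and at 0.0247 and 0.0244 with induction, while the counts with siDNMT1 became 10 that fell and 11 that rose before induction and 17 of each after it.

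Where an island stood in another library told more than the counts. Islands were classed by a library outside each comparison, so that the class did not share its error with the difference. Before induction the 737 high islands had a median difference with siDNMT1 of -0.00781 and 79.0% were lower, but none passed 0.1 in either direction. The 988 intermediate islands had -0.00249 and the 916 low islands 0.000956. After induction the medians were -0.0167 for high islands (89.4% lower), -0.0123 for intermediate and -0.000998 for low. After centring, the high islands kept a median below 0, of -0.00374 and -0.00396, while the intermediate and low islands were above 0. Centring takes the same value off every class, so the order of the classes could not change. The library medians used for it lie at intermediate levels.

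With induction the intermediate class had the lowest medians. From NC to NC OB the 1018 intermediate islands had a median difference of -0.0289, and 81.1% were lower, while high islands had -0.00279 and low islands -0.00355. In siDNMT1 cells the medians were -0.0375 for intermediate, -0.0127 for high and -0.00557 for low islands. After centring all 6 medians were above 0, at 0.00388 and 0.00391 for the intermediate class. That this class stayed the lowest is no check, since centring leaves the order of the classes as it was. The class pattern was not particular to genes' interiors by its values: intermediate islands at starts had -0.0338 from NC to NC OB and intergenic ones -0.0284, and high islands there had -0.0103 and -0.0116 with siDNMT1 after induction. No test of these differences between island classes was made.

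**Figure D4:**
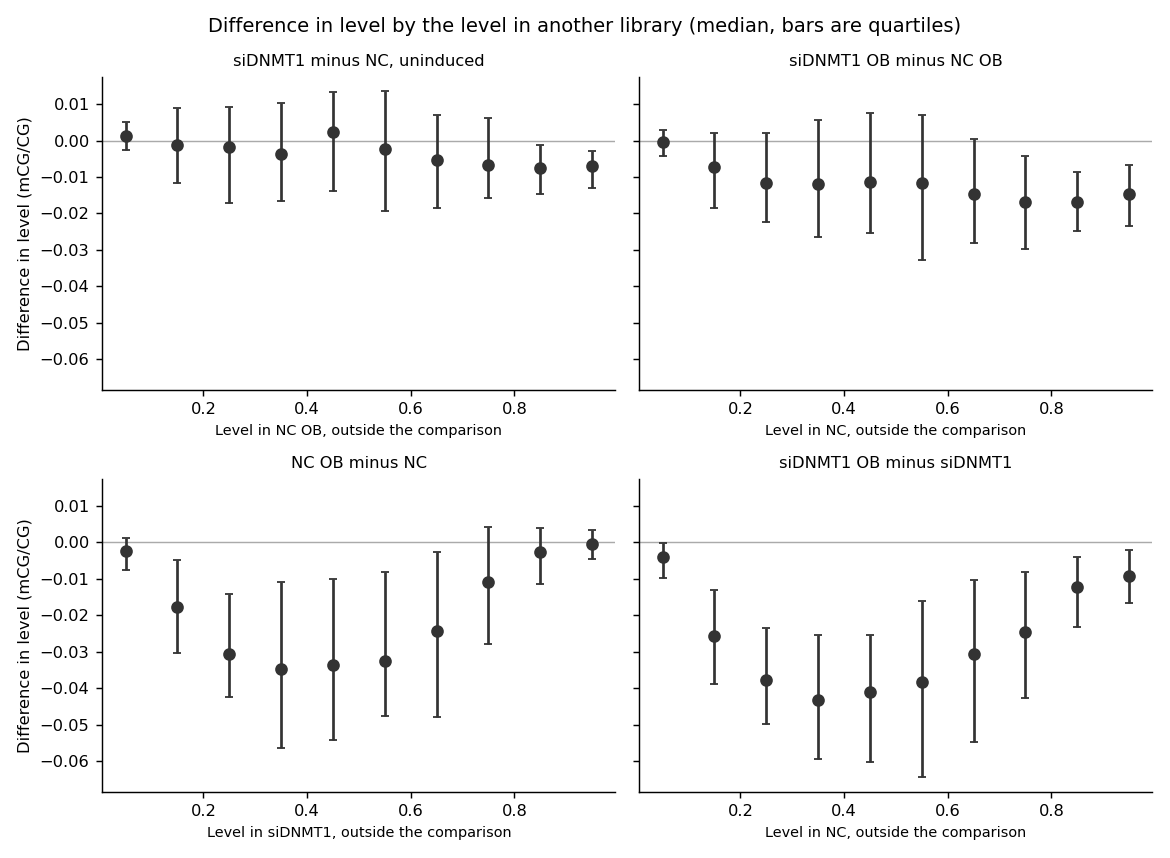
Median (points) and quartiles (bars) of the difference in methylation level (vertical axis) for intragenic islands grouped by bins of 0.1 of the level in a library outside the comparison (horizontal axis), in 4 comparisons. With siDNMT1 the medians are lowest, from -0.00662 to -0.00764 before and from -0.0147 to -0.0169 after induction, among islands from 0.7 upwards, and with induction among islands from 0.2 to 0.6, where they run from -0.0305 to -0.0346 with the control siRNA.

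With siDNMT1 the shores had medians below 0 beside islands of every class, the lowest beside high islands. Beside high islands the shores had median differences of -0.00743 before induction and -0.0195 after it, where the same islands had -0.00749 and -0.0170. Beside intermediate islands the shores had -0.00487 and -0.0145, and beside low islands -0.00141 and -0.00462. Under induction with the control siRNA the intermediate islands had -0.0284 and their shores -0.0107, so here the island differed by more than its flanks. Lower levels in both siDNMT1 comparisons, which share no library, were seen in 541 of 741 high islands (73.0%) and higher levels in both in 24. Of the same 741, 79.5% were lower before induction and 90.1% after it. With such shares most islands are lower in both even with no link between the 2 comparisons, so the 541 do not show agreement island by island. Across those 741 islands the size of the differences gave a Spearman correlation of 0.0741 and a Pearson correlation of -0.154, of opposite sign. For the induction differences of 1011 intermediate islands they were 0.395 and 0.213. Islands in these correlations share their libraries, and the class is by the mean of the 4 libraries.

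Islands with few CpG held more of the changes than islands with many. The 18 islands past 0.1 before induction had a median of 22.5 CpG, and the 34 after induction 23, against 36 over all 2641. Islands with 14 to 24 CpG gave 13 of the 18 changes with siDNMT1 before induction, 21 of 34 after it, 19 of 45 with induction under the control siRNA and 27 of 60 under siDNMT1. Islands with 62 to 485 CpG gave 1, 4, 7 and 7 in that order. The SD of the difference before induction was 0.0327 in the first of these groups and 0.0150 in the last. The part of CpG number in the changes was not tested.

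Only 2 islands passed 0.1 with the same sign before and after induction when siDNMT1 was compared with NC. The Zfp513 island, in a coding exon of a zinc finger gene, had levels of 0.382 in NC, 0.508 in siDNMT1, 0.327 in NC OB and 0.550 in siDNMT1 OB, so both depleted libraries stood above both controls (all islands: 0.0437% rose in both). The Ccdc151 island (chr9:21989893-21990218, in a coding exon and UTR of a gene for ciliary dynein arms, 24 CpG) had 0.583, 0.407, 0.690 and 0.435, with both depleted libraries below both controls (all islands: 0.0292% fell in both). Another 7 islands passed 0.1 in opposite directions, against 0.0729% of all islands.

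Gnas, Rgma and Gata3 were among the largest falls with siDNMT1. Before induction the Gnas intron island fell from 0.484 to 0.252, and in the OB libraries it stood at 0.447 and 0.463. Gnas codes for the stimulatory G protein alpha subunit and is imprinted. After induction the Rgma island (chr7:73409278-73409531, coding exon and UTR, 24 CpG) fell from 0.857 to 0.400, and it stood at 0.829 in both uninduced libraries. RGMA is a BMP co-receptor and axon guidance cue. The Gata3 island (chr2:9877288-9877685, coding exon and UTR, 39 CpG) fell from 0.634 to 0.406 after induction and stood at 0.650 and 0.644 before it. In each of the 3, 1 library stood apart from the other 3.

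Bdnf, Kcnh6 and Irx4 were among the largest rises. The Bdnf island (chr2:109723441-109723686, in the coding exon of the neurotrophin gene, 17 CpG) had 0.339 in NC, 0.618 in siDNMT1, 0.467 in NC OB and 0.5 in siDNMT1 OB. The Kcnh6 island (chr11:106020456-106020764, coding exon of a potassium channel gene, 32 CpG) was listed at 0 in NC and had 0.0333, 0.0625 and 0.333 in the others. The Irx4 island (chr13:73268477-73268710, coding exon of a homeobox gene, 18 CpG) was listed at 0 in both uninduced libraries and had 0.05 in NC OB and 0.235 in siDNMT1 OB. Kcnh6 and Irx4 stood apart in the siDNMT1 OB library, and Bdnf was highest in the uninduced siDNMT1 library. Read counts are unknown for these islands and for the largest falls, so whether such changes rest on few reads was not tested.

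Among the largest falls with induction, Irx5, a homeobox gene, had levels in its intron island (chr8:92365567-92365890, 25 CpG) of 1.00 in NC, 0.8 in siDNMT1, 0.667 in NC OB and 0.722 in siDNMT1 OB. The Pax6 intron island (chr2:105669481-105669780, 28 CpG) had 0.704, 0.656, 0.494 and 0.589, and the Zfp536 intron island (chr7:37624141-37624614, 56 CpG) 0.391, 0.343, 0.198 and 0.305. In these 3 both OB libraries stood below both uninduced libraries, an order of which NC OB below NC was fixed by how they were picked. The other 2 of the 5 largest falls did not keep this order, Arhgef19 with 0.808, 0.686, 0.583 and 0.929 and Col9a2 with 0.567, 0.394, 0.333 and 0.469. The Abca16 intron island (chr7:120504416-120504630) had 0.238, 0.315, 0.475 and 0.349 and stood higher in both OB libraries, which the other 4 of the 5 largest rises did not. For the rises, NC OB above NC was fixed by the pick in the same way.

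Imprinted host genes held 19 of the islands, and 13 of them were intermediate (all intragenic islands 38.3%). The Igf2r intron island (chr17:12741441-12742489, 82 CpG), printed above in part, lies 43 bases from a 5′ end of Airn, the noncoding transcript that silences Igf2r. Its levels were 0.485 in NC, 0.541 in siDNMT1, 0.495 in NC OB and 0.480 in siDNMT1 OB. The Kcnq1 intron island (chr7:143295405-143295824, 41 CpG) lies 725 bases from the 5′ end of Kcnq1ot1 and had 0.476, 0.426, 0.341 and 0.403. The Trappc9 intron island (chr15:72809538-72810123, 44 CpG) lies 201 bases from the 5′ end of Peg13 and had 0.518, 0.512, 0.498 and 0.454. All 3 stayed between 0.3 and 0.6. None of the 2641 islands held the 5′ end of any of the 19 noncoding imprinted transcripts listed.

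The other imprinted genes ranged from low to high. Levels from 0.488 to 0.514 were measured in the island of an Igf2 intron (chr7:142663910-142664388), and from 0.443 to 0.510 in that of Ndn. The other islands of Gnas and Trappc9 were higher, the large Gnas coding-exon island (167 CpG) at 0.661 to 0.678 and the first Trappc9 one at 0.878 to 0.900, and H13 had a mean level of 0.826. At the low end the mean levels were 0.0120 in Tssc4, 0.0156 in Inpp5f, 0.0485 in the first Sfmbt2 island and 0.163 in Slc22a3. The Peg3 island was the least steady of the 19, with 0.340, 0.514, 0.631 and 0.486. The median over the 19 was 0.484 in NC, 0.505 in siDNMT1, 0.455 in NC OB and 0.454 in siDNMT1 OB, against 0.442, 0.438, 0.409 and 0.397 over all intragenic islands. Before induction 1 of the 19 fell with siDNMT1 (Gnas) and 1 rose (Peg3), where 0.197% and 0.19% of all islands did, and after induction 1 fell (Peg3), where 0.328% did. Counts of 1 in so short a list say nothing particular to it.

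**Figure D5:**
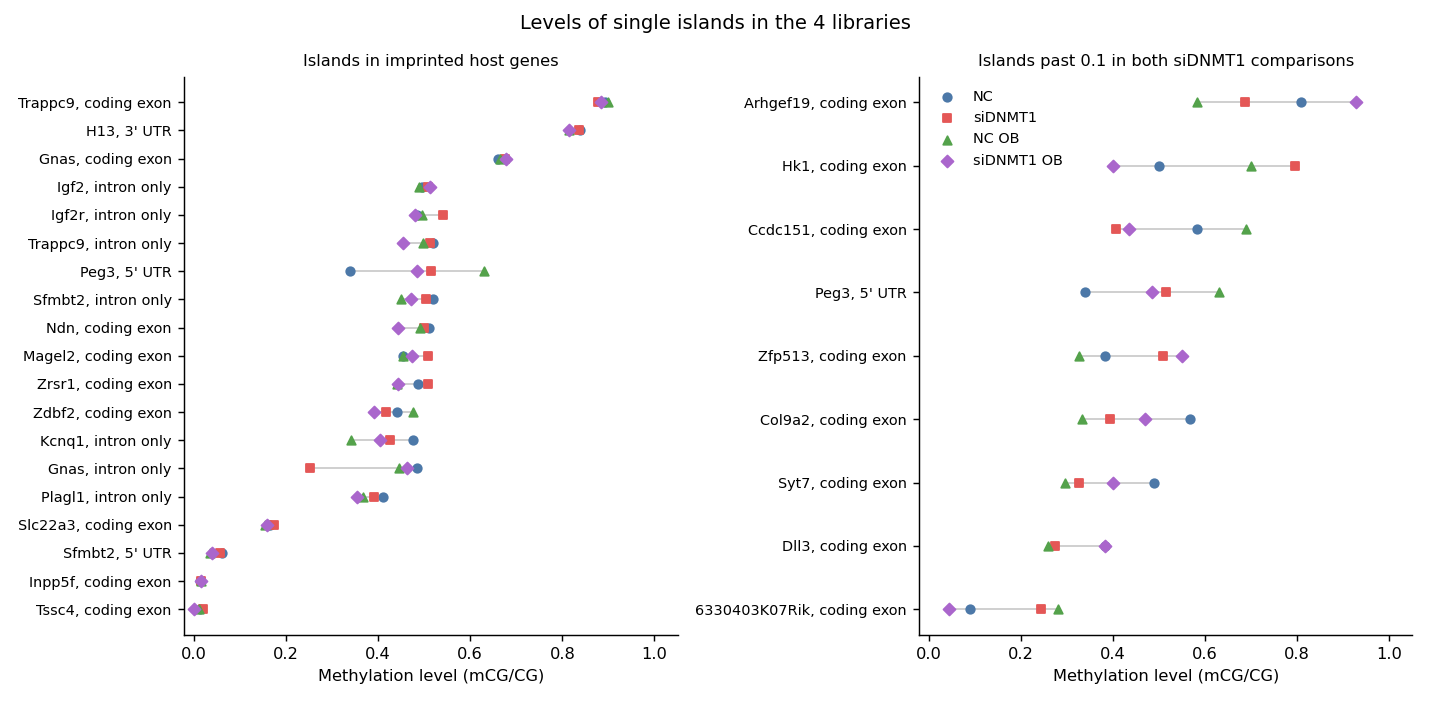
Methylation level (horizontal axis, mCG/CG) in the 4 libraries of the 19 islands in imprinted host genes and of the 9 islands past 0.1 in both siDNMT1 comparisons, named by host gene and feature. The 4 levels of 12 of the imprinted-gene islands lie between 0.3 and 0.7, and in the right panel only Zfp513 and Ccdc151 have both depleted libraries on the same side of both controls. The share of all intragenic islands between 0.3 and 0.7 in the 4 libraries is not given, so the 12 are a description.

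Genes of the skeleton held islands at every level. The chondrocyte list had 20 islands in 14 of its 28 genes, with a median in NC of 0.539. Sox9, the factor that starts cartilage formation, held 3, at 0.0209 in NC next to its start, then 0.394 and 0.801 along the gene (chr11:112782319-112783154, chr11:112783818-112784076 and chr11:112784500-112785465). The last had 0.837 in siDNMT1, 0.805 in NC OB and 0.771 in siDNMT1 OB. Chst3, which sulfates chondroitin, held the highest of the list, from 0.904 to 0.912 in the 4 libraries. Col9a2, a cartilage collagen, was the only one of the 20 to pass 0.1 in any comparison, with the levels given above, where 0.197% of all islands fell with siDNMT1 before induction. It fell with siDNMT1 before induction and with induction under the control siRNA (all islands 0.802%), and it rose with siDNMT1 after induction (all islands 0.248%).

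The osteoblast list had 12 islands with a median in NC of 0.381, and none passed 0.1 in any comparison. Over all islands 0.16% to 1.02% passed it per direction and comparison, so a count of 0 among 12 is no result about the list. Of the 12, 4 lie in Hmx2, Nkx1-2 and Gpr26, genes inside a long annotated model of Fgfr2, and so are not islands of osteoblast genes in the plain sense. Sp7, the osteoblast factor osterix, had 0.666 in NC, 0.660 in siDNMT1, 0.620 in NC OB and 0.635 in siDNMT1 OB. Tnfsf11, the osteoclast-forming ligand RANKL, had 0.454, 0.446, 0.354 and 0.393, and Pth1r, the parathyroid hormone receptor, 0.0951, 0.0829, 0.0393 and 0.0222. In Sp7, Tnfsf11 and Pth1r both OB libraries stood below both uninduced libraries. Sost, which codes for the Wnt inhibitor sclerostin, had 0.116, 0.103, 0.113 and 0.0990, with no such order. These genes were picked after their values were seen. Of the 12 islands, 11 were lower in NC OB than in NC and 12 in siDNMT1 OB than in siDNMT1. Over all intragenic islands 72.6% and 83.6% were lower, so the order is not particular to the genes named.

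Signalling and patterning genes differed in level by list. The medians in NC were 0.266 for 17 hedgehog islands, 0.319 for 17 FGF, 0.354 for 22 Notch, 0.469 for 27 BMP and TGF-β and 0.519 for 30 Wnt islands. Of the 17 FGF islands 4 are the same ones in Hmx2, Nkx1-2 and Gpr26 inside the long Fgfr2 model, and the FGF median is the value of the Nkx1-2 island. The Hox list had 36 islands with a median of 0.369, of which 29 were intermediate, and the other homeobox genes 144 with 0.394. Both were below the 0.442 over all intragenic islands in NC. In the Hox list 32 of 36 islands were lower in NC OB than in NC. Of all intragenic islands 72.6% were lower in NC OB, and of the intermediate ones 81.1%. Among the 36, 1 fell with siDNMT1 before induction (all islands 0.197%), that of Hoxd4 (chr2:74727334-74727642), named after its values were seen, with 0.188, 0.0727, 0.130 and 0.0851. The median differences from NC to NC OB were -0.0184 for Hox and -0.0151 for other homeobox islands. Intermediate intragenic islands, the class of most Hox islands, had -0.0289, so the Hox median was not the lower one.

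In the Notch, FGF and hedgehog lists 10 genes held more than 1 island, and the most 3′ one was higher in NC in 6 and lower in 4. Notch3, a Notch receptor, had 3 islands at 0.0962, 0.755 and 0.766 in NC from its 5′ end onwards. Dhh, a hedgehog ligand, had 0.474 and 0.901, and Shh 0.131, 0.210 and 0.398. The 4 with a lower last island were Hes3, a Notch target, with 0.390 and then 0.223, Dll3, Hes1 with 0.0368 and 0.0164, and Fgf9 with 0.0891 and 0.0363. Ptch1, the hedgehog receptor, had 0.0198 in its intron island, and Wnt4, a Wnt ligand, 0.915 in its last coding exon. Dll3, a Notch ligand, had an island past 0.1 in all 4 comparisons (chr7:28301284-28301506, 21 CpG), with 0.383, 0.274, 0.259 and 0.384, while its other island, with 82 CpG, had 0.325, 0.321, 0.277 and 0.273.

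Cadherin and axon guidance genes held 73 islands with a median in NC of 0.526, of which 1, Rgma, fell with siDNMT1 after induction, where 0.328% of all islands did. Sox, Fox and Tbx factors had 36 with 0.396, chromatin regulators 27 with 0.389, muscle genes 12 with 0.520 and adipocyte genes 14 with 0.599. Among chromatin regulators 12 were low, 5 intermediate and 10 high. The list of methylation machinery held 4 islands, of which 1 is a Zbtb45 island counted through an overlap with Trim28, and 2 in Tet3 stood at 0.908 and 0.881 in NC and at 0.886 and 0.865 in siDNMT1 OB. The remaining one, in a Dnmt3a intron 94 bases from a protein-coding 5′ end, had 0.463, 0.425, 0.492 and 0.402. Its siDNMT1 differences were -0.0386 before induction and -0.0899 after it, the latter just short of 0.1. All 4 were lower with siDNMT1 in both comparisons, where 57.7% and 71.6% of intragenic islands and 79.0% and 89.4% of high ones were lower, and none passed 0.1.

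Size did not go with a fixed level. The island with the most CpG, in a Unc45b intron (chr11:82930139-82933384, 485 CpG), had 0.625, 0.621, 0.578 and 0.575, and 25.5% of its 50-base stretches occur more than once in the assembly. The Lbx1 island (344 CpG), in a homeobox gene of migrating muscle precursors, had 0.408, 0.407, 0.372 and 0.36. The Plec island (343 CpG), in the gene of the cytoskeletal linker plectin, had 0.868, 0.866, 0.868 and 0.857, and that of Hic1 (338 CpG), a transcriptional repressor, 0.758, 0.786, 0.723 and 0.725. The Tchh island (336 CpG), in the hair follicle gene trichohyalin, had 0.166, 0.16, 0.150 and 0.129. The 4 levels of each of these large islands lay within 0.1 of one another.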

How the data were processed

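DNA methylation was measured in 4 libraries of C3H10T1/2 cells, 1 for each combination of siRNA and induction. Per the labels and the study's methods, the authors trimmed reads with Trimmomatic 0.36 and aligned them to mm10 with Bismark 0.16.3, and CASAVA is also listed. They deposited, for each region, the fraction of CpG cytosines read as methylated, from 0 to 1, without read counts. The coverage minimum and the weighting of cytosines are not given in the sources used here. Island starts are counted from 0 in the deposited values and from 1 in the text. Positions were joined to GENCODE vM21 and sequences read from GRCm38.p6 (RefSeq). The host gene was the one with the largest overlap and then the shortest. Differences were counted from 0.1, without tests, since each condition has 1 library. For an island in several features, coding exon came first, then 3′ UTR, 5′ UTR, other exon and intron. The rule for named islands took the 5 largest changes per direction in the siDNMT1 comparisons and from NC to NC OB, those past 0.1 in both siDNMT1 comparisons, the 5 highest, the 5 with most CpG, those holding the start of a noncoding imprinted transcript (none did) and the lowest and highest of each gene list. All other islands named, among them Rabac1, Hoxd4, Clstn2, those of Zfhx3, Fat1 and Nfix, the imprinted islands and further members of the lists, were outside that rule and were chosen after their values were seen. The rule, the islands and the lists were chosen with earlier results of these data known. The counting functions were tested on simulated data. Python 3.11.15, numpy 2.4.6, pandas 2.3.3, scipy 1.17.1 and matplotlib 3.10.9 were used. RNA-seq data and calls at single cytosines were not used here. A sequence of 1 further island is not reported here.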

Additional observations from a re-analysis of the deposited data

Results flagged for a closer look

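In 7 islands the siDNMT1 difference passed 0.1 in opposite directions before and after induction, with 1 pair of libraries behind each difference. The difference between the states was not tested, since each condition has 1 library, and 0.0729% of all islands did the same. The values given are the OB difference minus the uninduced difference. Hk1, a hexokinase gene (chr10:62269717-62269981), had 0.5 in NC, 0.794 in siDNMT1, 0.7 in NC OB and 0.4 in siDNMT1 OB, a value of -0.594. 6330403K07Rik (chr11:71033182-71033484) had 0.0909, 0.243, 0.280 and 0.0435, a value of -0.389. Peg3 (chr7:6730063-6730398), an imprinted zinc finger gene, had 0.340, 0.514, 0.631 and 0.486, a value of -0.319. In these 3 the level was higher with siDNMT1 before induction and lower after it. Arhgef19 (chr4:141247388-141247681), a guanine nucleotide exchange factor, had 0.808, 0.686, 0.583 and 0.929, a value of 0.467. Col9a2 (chr4:121039610-121039816) had a value of 0.308. Syt7 (chr19:10426353-10426643), a synaptotagmin gene, had 0.488, 0.327, 0.295 and 0.4, a value of 0.266. Dll3 (chr7:28301284-28301506) had a value of 0.234. These 4 moved the other way round. The 7 islands hold between 20 and 27 CpG, where the median over intragenic islands is 36.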

How the results depend on the processing

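Each result was recomputed under alternatives to 1 choice at a time, and for siDNMT1 OB minus siDNMT1 and for centred classes these were chosen after seeing the data. Medians and shares were set against a 95% interval around the reported value, and counts against 1.5 times of it. Of 141 values, 58 stayed within these limits, 70 moved and 13 changed sign. The interval was taken over islands, which are not replicates of a library, so this tally does not measure reproducibility. From a change of 0.05, the islands that fell and rose numbered 53 and 54 (siDNMT1 before induction), 117 and 37 (siDNMT1 after it), 288 and 36 (induction, control siRNA) and 412 and 33 (induction, siDNMT1). From 0.2 they numbered 2 and 2, 6 and 4, 4 and 3, and 5 and 6 in that order. With a protein-coding 5′ end at least 1000 bases away, 2 fell and 3 rose, then 11 fell in the second comparison, then 16 fell and 7 rose, and last 32 fell and 7 rose. With at least 30 CpG the pairs were 2 and 0, 5 and 5, 16 and 3, and 21 and 4. These subsets hold fewer islands by construction. Centring on library medians gave 11 that fell and 22 that rose, and 16 and 26, in the induction comparisons, and it turned the median differences to 0.00191, 0.00431, 0.0247 and 0.0244. Centred class medians, low, intermediate and high, were 0.00503, 0.00158 and -0.00374 for siDNMT1 before induction, 0.0117, 0.000452 and -0.00396 after it, 0.0292, 0.00388 and 0.0299 for induction with the control siRNA and 0.0358, 0.00391 and 0.0287 with siDNMT1. Of the 24 recomputed median differences, 20 stayed below 0. Before induction the median difference was -0.00287 without any annotated 5′ end, -0.00405 from 1000 bases, -0.00141 from 30 CpG and -0.00565 at mean levels of at least 0.2. After induction the same were -0.00997, -0.0123, -0.00606 and -0.0146. For induction with the control siRNA they were -0.00990 from 30 CpG and -0.0123 at levels of at least 0.2, and with siDNMT1 -0.0239 at levels of at least 0.2. Median levels in NC, siDNMT1, NC OB and siDNMT1 OB were 0.516, 0.514, 0.490 and 0.478 without any annotated 5′ end, 0.665, 0.663, 0.647 and 0.626 from 1000 bases, and 0.352, 0.350, 0.321 and 0.310 from 30 CpG. Low and high islands made up 24.95% and 21.8% with classes from 0.1 and 0.8, 28.1% and 32.2% without any annotated 5′ end, 19.8% and 40.6% from 1000 bases, and 38.3% and 22.3% from 30 CpG. Coding-exon islands by their centre base had a median of 0.635. The cause of these moves was not tested. Depth is unknown, so a difference at a single island, small or large, cannot be told from sampling. No paired analysis was possible because each condition has 1 library.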

Other observations

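Chromosome X held 74 islands of the same kind, which were left out above. Their median levels were 0.401 in NC, 0.408 in siDNMT1, 0.426 in NC OB and 0.435 in siDNMT1 OB, and their median induction differences were 0.00863 with the control siRNA and 0.0149 with siDNMT1. Both are above 0, where the autosomal islands had -0.00808 and -0.0170. Only 3 of the 74 were low and 8 were high, against 889 and 741 of the 2641 on the autosomes. No test was made.

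Another 91 intragenic islands had no level in at least 1 library and were left out. They were smaller, with a median of 24 CpG in 279 bases against 36 in 398. The siDNMT1 OB library had no level for 56 of them, NC OB for 44, NC for 38 and siDNMT1 for 36. Where they had a level, their medians were 0.475 in NC, 0.619 in siDNMT1, 0.582 in NC OB and 0.571 in siDNMT1 OB.

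The highest mean level among all 2641 islands was in an intron of Spata5 (chr3:37481328-37481728), with 0.967, 0.955, 0.968 and 0.973 in NC, siDNMT1, NC OB and siDNMT1 OB. Of its 50-base stretches, 9.94% occur more than once on the assembled chromosomes. Some hosts are long annotated models. Gm20388 spans other genes and is among the hosts of 22 islands and the sole host of 9, whose mean levels ran from 0.0179 to 0.908. The Clstn2 intron island (chr9:97701066-97701306), in which every 50-base stretch recurs and which was named after its values were seen, had 0.133, 0.159, 0.241 and 0.250 and rose with induction under the control siRNA.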
